A study of Mus musculus with 8 samples.

Results

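Histone genes were compared between testes that lack Zfy genes and testes in which Zfy2 was restored. The members were all gene symbols of the array table that name a core or linker histone, a replacement or testis histone variant, a transition protein or a protamine, 72 of 18097 genes. Of these, 42 had a detection p-value under 0.01 on at least 4 of the 8 arrays and were analysed, among 8324 genes kept by the same filter. XEOSry males have a single X chromosome and carry transgenes for Sry and Eif2s3y. XEZ2OSry males have the same karyotype and transgenes and carry a Zfy2 transgene in addition. All were males on the MF1 background strain, and RNA of the whole testis was taken at 17.5 days post partum (dpp), with 4 animals per genotype and 1 single-colour Illumina array per animal. Values are log2 signals that the authors had quantile normalized, and differences are XEOSry minus XEZ2OSry. Since the RNA came from whole testis, fewer cells of a type and less RNA per cell cannot be told apart.

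The probe for Zfy2 did not separate the genotypes. Its log2 signal was 6.16, 6.05, 6.20 and 6.12 in XEOSry replicates 1 to 4, against 6.15, 6.15, 6.16 and 6.19 in XEZ2OSry, and it was not above background on any array. The probe for the related gene Zfy1 gave 6.13, 6.13, 6.28 and 6.14 in XEOSry, against 6.77, 6.57, 6.56 and 6.50 in XEZ2OSry, also below the detection threshold on all 8 arrays. Eif2s3y, carried by both genotypes, was detected on all 8. It gave 13.05, 13.30, 13.05 and 12.19 in XEOSry (mean 12.90), against 12.63, 12.20, 12.11 and 12.48 in XEZ2OSry (mean 12.36). Between 8132 and 8434 genes were detected on the XEOSry arrays and between 8063 and 8282 on the XEZ2OSry arrays.

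Replication-dependent histone genes supply the bulk of histone during S phase. They lie in clusters, have no introns in most cases, and their mRNAs usually end in a stem-loop instead of a poly(A) tail. Replacement variants such as H3.3, H2A.Z and H2A.X are made outside S phase as well, from polyadenylated mRNAs. In the male germ line, testis variants join the chromatin of spermatocytes, and in spermatids transition proteins and then protamines take the place of most histones. H2A.X, phosphorylated by the DNA damage kinases, coats the unsynapsed sex chromosomes in pachytene spermatocytes, where they are silenced.

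No histone member passed the threshold. With limma across all genes kept and Benjamini-Hochberg adjustment, 0 of 42 members had an adjusted p under 0.05, where 5 of 8324 genes passed in all (0.0601%). At an unadjusted p under 0.05, 8 members were higher in XEOSry and 4 were lower, against a background of 12.9% higher and 12.0% lower over all genes kept. The genotypes did not overlap in 1 higher member, Hist1h2ao, and in 1 lower member, Hist2h2aa1, where 6.34% and 4.58% of all genes kept did not overlap in those directions. Over the 42 members the median difference was 0.08, beside 0.07 over all genes kept, and 27 members (64.3%) lay above 0, beside 62.0% of all genes. The median and the share above 0 were close to those of all genes. By class, the medians ran from 0.46 in replication-dependent H2A genes to -0.12 in replacement variants.

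**Figure D1:**
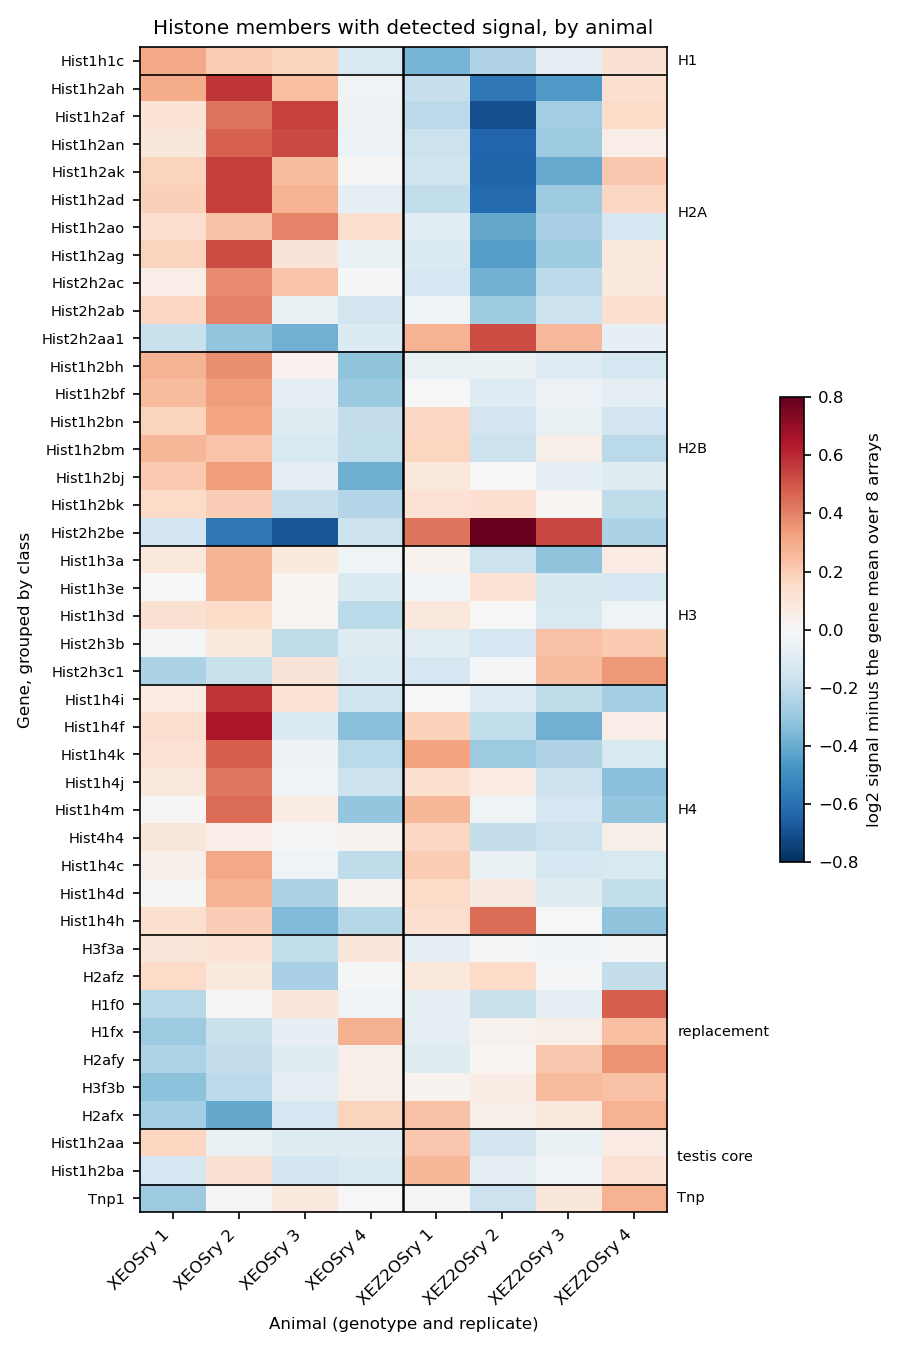
Log2 signal of the 42 analysed members in each animal, as the difference from the mean of the gene over the 8 arrays, with XEOSry animals in the left columns, XEZ2OSry animals in the right columns and genes grouped by class. The 7 H2A genes of the Hist1 cluster are red in XEOSry replicates 1 to 3 and blue in XEZ2OSry replicates 1 to 3.

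The H2A genes of the Hist1 cluster on chromosome 13 all lay on the same side. H2A is the core histone that pairs with H2B in the nucleosome. The cluster holds 10 such members, of which 7 were analysed and 3 were not detected on any array, and all 7 were higher in XEOSry, with differences of 0.37 to 0.54 (median 0.50) and an unadjusted p under 0.05, where 12.9% of all genes kept were higher at that p. None passed after adjustment, with adjusted p-values of 0.112 to 0.177 from limma. Hist1h2ah, the member with the largest difference, gave 12.45, 12.72, 12.40 and 12.12 in XEOSry replicates 1 to 4, against 11.97, 11.58, 11.70 and 12.28 in XEZ2OSry. XEZ2OSry replicate 4 lay above XEOSry replicate 4, so that the genotypes overlapped. The means were 12.42 ± 0.25 in XEOSry and 11.88 ± 0.31 in XEZ2OSry (SD, n = 4 each), a 1.45-fold difference (0.54, SE 0.18, 95% interval 0.14 to 0.94, adjusted p = 0.131 from limma).

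Hist1h2ao was the member without overlap. Its signal was 14.31, 14.42, 14.58 and 14.31 in XEOSry, against 14.10, 13.77, 13.92 and 14.05 in XEZ2OSry. Every XEOSry animal lay above every XEZ2OSry animal, which gives the smallest p that the 70 assignments of 8 arrays allow in a two-sided exact permutation test (p = 0.0286). The same separation was seen in 6.34% of all genes kept. The difference was 0.44 (SE 0.11, 95% interval 0.20 to 0.68), 1.36-fold, with an adjusted p of 0.112 from limma. Hist1h2af gave 12.91, 13.23, 13.35 and 12.76 in XEOSry, against 12.59, 12.09, 12.52 and 12.95 in XEZ2OSry (difference 0.52, SE 0.19). Hist1h2an gave 12.48, 12.86, 12.92 and 12.34 in XEOSry, against 12.22, 11.75, 12.10 and 12.44 in XEZ2OSry (difference 0.52, SE 0.18). In both, XEZ2OSry replicate 4 was the animal that reached into the XEOSry range. The other 3 members, Hist1h2ak, Hist1h2ad and Hist1h2ag, differed by 0.50, 0.47 and 0.37. These genes encode nearly the same protein from closely similar sequences, so that a probe may read more than its own gene, and the part of shared signal in their likeness was not tested.

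The 3 H2A genes of the Hist2 cluster on chromosome 3 lay on both sides of 0. Hist2h2ac gave 13.96, 14.29, 14.14 and 13.90 in XEOSry, against 13.77, 13.53, 13.70 and 13.99 in XEZ2OSry, a difference of 0.32 (SE 0.13, adjusted p = 0.168 from limma). Hist2h2ab differed by 0.18 (SE 0.14). Hist2h2aa1 ran the other way, with 8.74, 8.60, 8.53 and 8.81 in XEOSry, against 9.20, 9.44, 9.18 and 8.85 in XEZ2OSry. All 4 XEOSry animals lay below all 4 XEZ2OSry animals, the closest being XEOSry replicate 4 and XEZ2OSry replicate 4. The difference was -0.49 (SE 0.13, 95% interval -0.79 to -0.20, 0.710-fold), with p = 0.0286 in the two-sided exact permutation test and an adjusted p of 0.117 from limma. Hist2h2aa1 is named here because of its values, outside the rule for named genes. Any gene without overlap has this permutation p, as 4.58% of all genes kept did in this direction. The p therefore adds nothing to the lack of overlap for which the gene was picked.

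**Figure D2:**
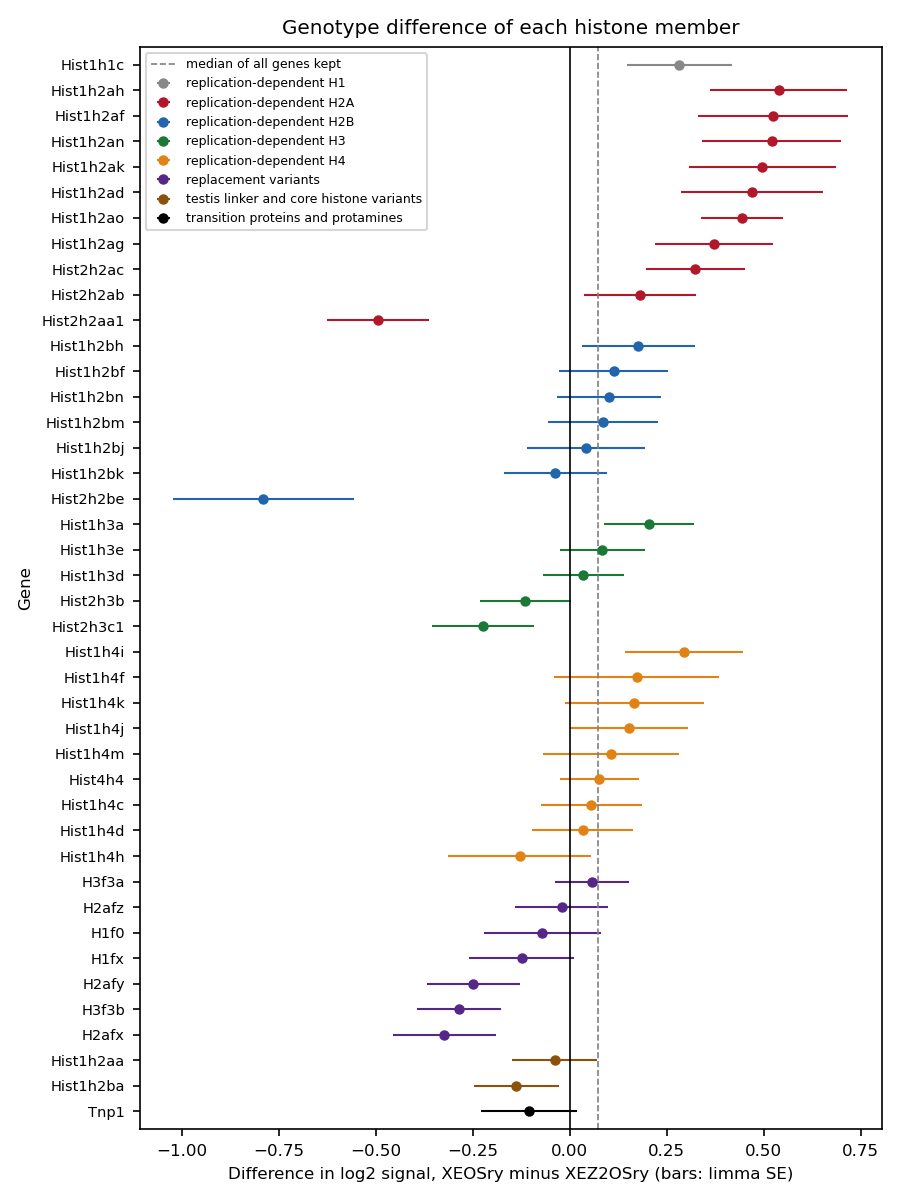
Difference in log2 signal, XEOSry minus XEZ2OSry, of each analysed member with its limma standard error, coloured by class, with 0 as a solid line and the median of all genes kept (0.07) dashed. Of the 10 H2A genes 9 lie to the right of 0, and Hist2h2be and Hist2h2aa1 lie farthest to the left.

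The animals kept nearly the same order across the H2A genes. In the 9 H2A members that were higher in XEOSry, XEZ2OSry replicate 2 was the lowest of all 8 animals in 9, and XEOSry replicate 2 was the highest in 6 and XEOSry replicate 3 in the other 3. XEOSry replicate 4 was the lowest of its genotype in 8 of 9, and XEZ2OSry replicate 4 the highest of its genotype in 8 of 9. The mean signal of the 7 genes of the Hist1 cluster was 12.49, 12.80, 12.66 and 12.30 in XEOSry replicates 1 to 4, against 12.16, 11.75, 11.998 and 12.41 in XEZ2OSry.

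Markers of pachytene spermatocytes varied among the same animals. All 18 analysed markers of 26 found in the table were lower in XEOSry, with a median difference of -1.24, and none passed the adjusted threshold (6 of the 26 were not detected on any array). Rsph1, an axoneme protein, differed by -0.91 (SE 0.30) and Ldhc, the lactate dehydrogenase of germ cells, by -1.42 (SE 0.48). The mean signal of the 18 markers was 9.98, 8.64, 8.88 and 10.35 in XEOSry replicates 1 to 4, against 10.95, 11.42, 11.01 and 10.17 in XEZ2OSry. The animals with the lowest pachytene signal, XEOSry replicates 2 and 3, were those with the highest H2A signal, and the animal with the highest pachytene signal, XEZ2OSry replicate 2, had the lowest. The mean of 11 Sertoli cell markers ran from 10.17 to 10.63 in XEOSry and from 9.65 to 10.44 in XEZ2OSry, with 10 of 11 higher in XEOSry (median 0.27). Among 9 spermatogonia markers 8 were higher (median 0.16), and the mean of the 9 ran from 8.17 to 8.46 in XEOSry and from 7.95 to 8.47 in XEZ2OSry. The lower one, Id4, had the largest absolute difference of this list (-0.89, SE 0.24). None of the 8 was higher at an unadjusted p under 0.05 from limma, where 12.9% of all genes kept were. All 6 analysed macrophage markers were higher (median 0.31), with a mean of 8.07 to 8.55 in XEOSry and of 7.76 to 8.38 in XEZ2OSry. All 4 peritubular and vascular markers were higher as well (median 0.26), with a mean of 8.26 to 8.97 in XEOSry and of 7.98 to 8.74 in XEZ2OSry. Of 5 Leydig cell markers 3 were higher (median 0.02), and of 12 prophase I markers 6 were (median -0.07). None of these marker genes passed the adjusted threshold. The part of these cell types in the histone values was not tested.

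**Figure D3:**
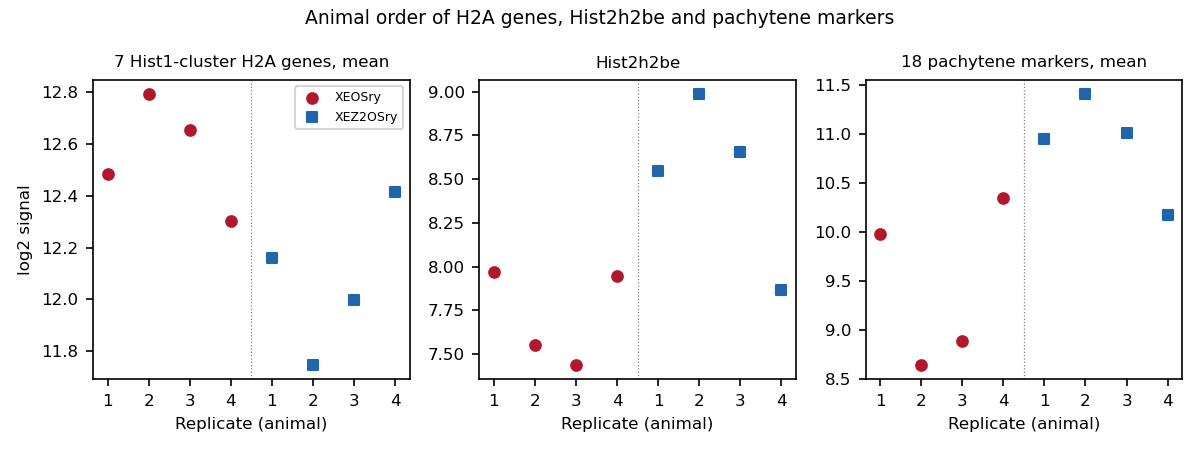
Log2 signal in each animal of the 7 H2A genes of the Hist1 cluster (mean, left), of Hist2h2be (middle) and of 18 pachytene markers (mean, right), with XEOSry as red circles left of XEZ2OSry as blue squares and a separate vertical scale in each panel. XEZ2OSry replicate 2 is lowest in the left panel (11.75) and highest in the middle panel (8.99) and in the right panel (11.42).

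The H2B genes of the Hist1 cluster lay close to 0. H2B is the partner of H2A, and of 14 replication-dependent H2B members 7 were analysed and 5 were not detected on any array. Of the 7 analysed, 5 lay above 0 and 2 below, with a median of 0.09. The 6 from the Hist1 cluster differed by -0.04 to 0.18. Hist1h2bh gave 8.40, 8.49, 8.15 and 7.80 in XEOSry, against 8.07, 8.07, 8.02 and 7.98 in XEZ2OSry (difference 0.18, SE 0.15). Hist1h2bf differed by 0.11 (SE 0.14) and Hist1h2bj by 0.04 (SE 0.15, 95% interval -0.30 to 0.39), and the XEOSry animals spread over the whole XEZ2OSry range in all 3 genes.

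Many H2A and H2B genes stand head to head, transcribed away from a shared upstream region. Among members with a listed promoter in the RefSeq annotation of GRCm38.p6, 6 pairs had divergent starts at most 300 bases apart. In 4 pairs of the Hist1 cluster both replication-dependent genes were analysed. Members without a listed promoter, Hist2h2be among them, had no strand and could not enter the search. The pairs were picked out after the values were known, and they are described without a test. The H2A genes of the 4 pairs differed by 0.37 to 0.54, and their H2B partners by -0.04 to 0.11. Hist1h2ah at 0.54 (SE 0.18) stood beside Hist1h2bk at -0.04 (SE 0.13), and Hist1h2ag at 0.37 (SE 0.15) beside Hist1h2bj at 0.04 (SE 0.15). Hist1h2ak at 0.50 (SE 0.19) stood beside Hist1h2bn at 0.10 (SE 0.13), and Hist1h2ad at 0.47 (SE 0.18) beside Hist1h2bf at 0.11 (SE 0.14). The mean over the 4 H2A genes was 11.93, 12.27, 11.94 and 11.68 in XEOSry, against 11.56, 11.15, 11.36 and 11.87 in XEZ2OSry, and the mean over the 4 H2B genes was 8.46, 8.56, 8.15 and 7.98 in XEOSry, against 8.35, 8.23, 8.22 and 8.13 in XEZ2OSry. XEOSry replicate 2 was the highest of the 8 animals in both means, and XEZ2OSry replicate 2, the lowest for H2A, lay within the range of the others for H2B. The H2A probes may share signal, so the 4 pairs are not 4 independent cases. The H2B signals were also lower than the H2A signals on every array. The part of shared signal or of signal level in the contrast was not tested.

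**Figure D4:**
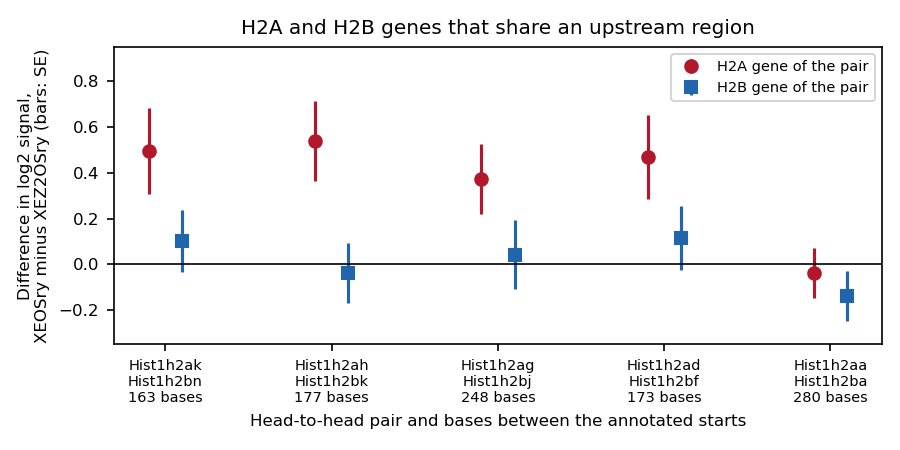
Difference in log2 signal, XEOSry minus XEZ2OSry, of the H2A gene (red circle) and the H2B gene (blue square) of each head-to-head pair with both genes analysed and a listed promoter for both. Bars are limma standard errors, and the number of bases between the annotated starts is under the names. The H2A probes may share signal, so the pairs are not independent cases. In the 4 replication-dependent pairs the H2A gene lies between 0.37 and 0.54 and the H2B gene between -0.04 and 0.11, and both genes of the testis pair Hist1h2aa and Hist1h2ba lie below 0.

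The regions between the paired starts are given because they lie upstream of both genes of a pair. Each is read 5′ to 3′ toward the H2A gene, with CCAAT, the octamer ATTTGCAT, TATAAA and the cyclic AMP response element TGACGTCA in capitals on either strand. The sequences are those of RefSeq for GRCm38.p6.
Hist1h2ah and Hist1h2bk, chr13:22035644-22035820, minus strand: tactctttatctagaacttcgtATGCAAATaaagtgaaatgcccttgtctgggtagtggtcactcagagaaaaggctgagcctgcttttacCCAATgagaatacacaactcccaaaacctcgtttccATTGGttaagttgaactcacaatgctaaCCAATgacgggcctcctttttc
Hist1h2ag and Hist1h2bj, chr13:22042950-22043197, minus strand: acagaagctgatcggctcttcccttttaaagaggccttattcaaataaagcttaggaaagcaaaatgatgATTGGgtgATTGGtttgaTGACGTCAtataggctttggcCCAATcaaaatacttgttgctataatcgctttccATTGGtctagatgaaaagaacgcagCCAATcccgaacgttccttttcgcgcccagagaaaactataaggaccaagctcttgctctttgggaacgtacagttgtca
Hist1h2ak and Hist1h2bn, chr13:21753913-21754075, minus strand: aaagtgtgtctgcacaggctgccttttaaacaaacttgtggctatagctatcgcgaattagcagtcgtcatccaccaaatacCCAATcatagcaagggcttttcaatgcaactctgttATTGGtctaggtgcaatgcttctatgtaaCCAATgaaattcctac
Hist1h2ad and Hist1h2bf, chr13:23574208-23574380, plus strand: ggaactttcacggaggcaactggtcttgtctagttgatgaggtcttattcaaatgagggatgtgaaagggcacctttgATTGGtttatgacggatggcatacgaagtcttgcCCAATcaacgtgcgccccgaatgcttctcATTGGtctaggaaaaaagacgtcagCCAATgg
All 4 regions hold CCAAT on both strands. The octamer was found in the region of Hist1h2ah and Hist1h2bk alone among the 4, and the cyclic AMP response element in that of Hist1h2ag and Hist1h2bj alone.

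In the Hist2 cluster a neighbouring H2A and H2B gene had values of opposite sign. Hist2h2be, an H2B gene, lies 191 bases from Hist2h2ac, and its RefSeq gene of 2667 bases is the longest among the analysed replication-dependent members. It gave 7.97, 7.55, 7.43 and 7.95 in XEOSry replicates 1 to 4, against 8.54, 8.99, 8.66 and 7.86 in XEZ2OSry. XEZ2OSry replicate 4 lay below XEOSry replicates 1 and 4, and the other 3 XEZ2OSry animals lay above all XEOSry animals. The means were 7.72 ± 0.27 in XEOSry and 8.51 ± 0.47 in XEZ2OSry (SD, n = 4 each), a difference of -0.79 (SE 0.23, 95% interval -1.31 to -0.27, 0.579-fold, adjusted p = 0.121 from limma), the largest of any member in absolute size. Its two-sided exact permutation p was 0.0857. The order of the animals was that of the pachytene markers at the top, with XEZ2OSry replicate 2 highest in both.

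The region between Hist2h2ac and Hist2h2be, and the 200 bases before Hist2h2aa1, are given for comparison with those of the Hist1 cluster, in the same notation and from the same source.
Hist2h2ac and Hist2h2be, chr3:96220881-96221071, minus strand, toward Hist2h2ac: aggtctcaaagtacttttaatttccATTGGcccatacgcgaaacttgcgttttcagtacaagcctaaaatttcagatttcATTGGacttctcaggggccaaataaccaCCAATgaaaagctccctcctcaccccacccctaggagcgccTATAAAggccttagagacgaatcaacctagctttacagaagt
Hist2h2aa1, chr3:96245297-96245496, plus strand: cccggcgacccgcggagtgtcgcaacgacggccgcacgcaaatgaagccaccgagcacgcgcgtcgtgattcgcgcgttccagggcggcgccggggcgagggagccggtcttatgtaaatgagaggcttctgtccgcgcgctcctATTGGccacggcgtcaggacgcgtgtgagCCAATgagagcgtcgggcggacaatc
CCAAT occurs in both, and TATAAA in the region between Hist2h2ac and Hist2h2be.

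Over all analysed members with a promoter in the RefSeq table, 39 of 42, CCAAT was found on either strand in the 250 bases before the start in 27 (69.2%), against 33.8% of all 32851 promoters. By class it was in 10 of 10 H2A, 6 of 6 H2B, 3 of 4 H3, 2 of 9 H4 and 3 of 6 replacement variant promoters, where paired genes share their bases. TATAAA was found in 15 of 39 (38.5%), against 12.4% of all promoters. The octamer was found in 7 (17.9%, against 1.60%) and the cyclic AMP response element in 3 (7.69%, against 1.55%). Matches are letters in a window and were not tested as sites.

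H3 and H4 genes, the other core histones, showed small differences. Of 9 replication-dependent H3 members 5 were analysed, with 3 above 0 and 2 below (median 0.03). Hist1h3a differed by 0.20 (SE 0.12), at a mean signal of 6.83. It was detected on 4 XEOSry and 2 XEZ2OSry arrays, so the genotype in which it was higher carried it past the filter. Hist2h3b gave 12.14, 12.23, 11.94 and 12.05 in XEOSry, against 12.07, 12.01, 12.39 and 12.36 in XEZ2OSry (difference -0.11, SE 0.12). Hist2h3c1 gave 10.58, 10.66, 10.94 and 10.72 in XEOSry, against 10.70, 10.82, 11.08 and 11.19 in XEZ2OSry (difference -0.22, SE 0.13). The genotypes overlapped in all 3. Of 11 H4 members 9 were analysed, with 8 above 0 and 1 below (median 0.11). Hist1h4i gave 7.85, 8.35, 7.89 and 7.62 in XEOSry, against 7.77, 7.68, 7.58 and 7.51 in XEZ2OSry (difference 0.29, SE 0.15, adjusted p = 0.258 from limma). Hist1h4f and Hist1h4k each differed by 0.17 (SE 0.21 and 0.18), with XEOSry replicate 2 the highest animal in both at 8.70 and 8.02.

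The linker histone Hist1h1c was the only analysed member of 5 replication-dependent H1 genes. It gave 9.59, 9.49, 9.47 and 9.17 in XEOSry, against 8.92, 9.05, 9.21 and 9.41 in XEZ2OSry, a difference of 0.28 (SE 0.13, 95% interval -0.02 to 0.59, adjusted p = 0.228 from limma). As in the H2A genes, XEOSry replicate 4 was the lowest of its genotype and XEZ2OSry replicate 4 the highest of its own.

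By cluster, 23 of 25 analysed members of the Hist1 cluster lay above 0 (median 0.17), and 2 of 6 of the Hist2 cluster (median -0.17). Over all 32 replication-dependent members 26 lay above 0 (median 0.13), and without the H2A genes 17 of 22 did (median 0.08, beside 0.07 over all genes kept).

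Replacement variants lay mostly below 0. Of 9 members 7 were analysed, with 6 below 0 and 1 above (median -0.12), and 2, H2afx and H3f3b, were lower at an unadjusted p under 0.05, where 12.0% of all genes kept were. H2afx, which encodes H2A.X, gave 10.13, 9.99, 10.26 and 10.58 in XEOSry, against 10.64, 10.45, 10.48 and 10.67 in XEZ2OSry. XEOSry replicate 4 lay within the XEZ2OSry range and the other 3 below it. The means were 10.24 ± 0.25 in XEOSry and 10.56 ± 0.11 in XEZ2OSry (SD, n = 4 each), a difference of -0.32 (SE 0.13, 95% interval -0.62 to -0.02, 0.799-fold, adjusted p = 0.179 from limma, two-sided exact permutation p = 0.0857).

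The 2 genes for H3.3 differed from each other in their values. H3f3b gave 13.18, 13.30, 13.43 and 13.56 in XEOSry, against 13.54, 13.57, 13.76 and 13.74 in XEZ2OSry, a difference of -0.29 (SE 0.11, 95% interval -0.53 to -0.04, 0.821-fold, adjusted p = 0.160 from limma). XEOSry replicate 4 passed XEZ2OSry replicate 1 by a small margin, and the other XEOSry animals lay below all XEZ2OSry animals. H3f3a, which encodes the same protein, gave 11.46, 11.47, 11.17 and 11.46 in XEOSry, against 11.29, 11.35, 11.34 and 11.35 in XEZ2OSry (difference 0.06, SE 0.10, 95% interval -0.16 to 0.27). Whether the 2 differences differ was not tested.

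H2afy, which encodes macroH2A1, a variant found on silenced chromatin, gave 9.94, 10.004, 10.09 and 10.23 in XEOSry, against 10.10, 10.21, 10.41 and 10.55 in XEZ2OSry (difference -0.25, SE 0.12, adjusted p = 0.233 from limma). H2afz, which encodes H2A.Z, gave 12.49, 12.41, 12.08 and 12.33 in XEOSry, against 12.42, 12.49, 12.33 and 12.15 in XEZ2OSry (difference -0.02, SE 0.12, 95% interval -0.29 to 0.25). The genotypes overlapped in both. The linker variants H1fx and H1f0 differed by -0.12 (SE 0.14) and -0.07 (SE 0.15), and H2afj and H2afy3 were not detected on any array.

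**Figure D5:**
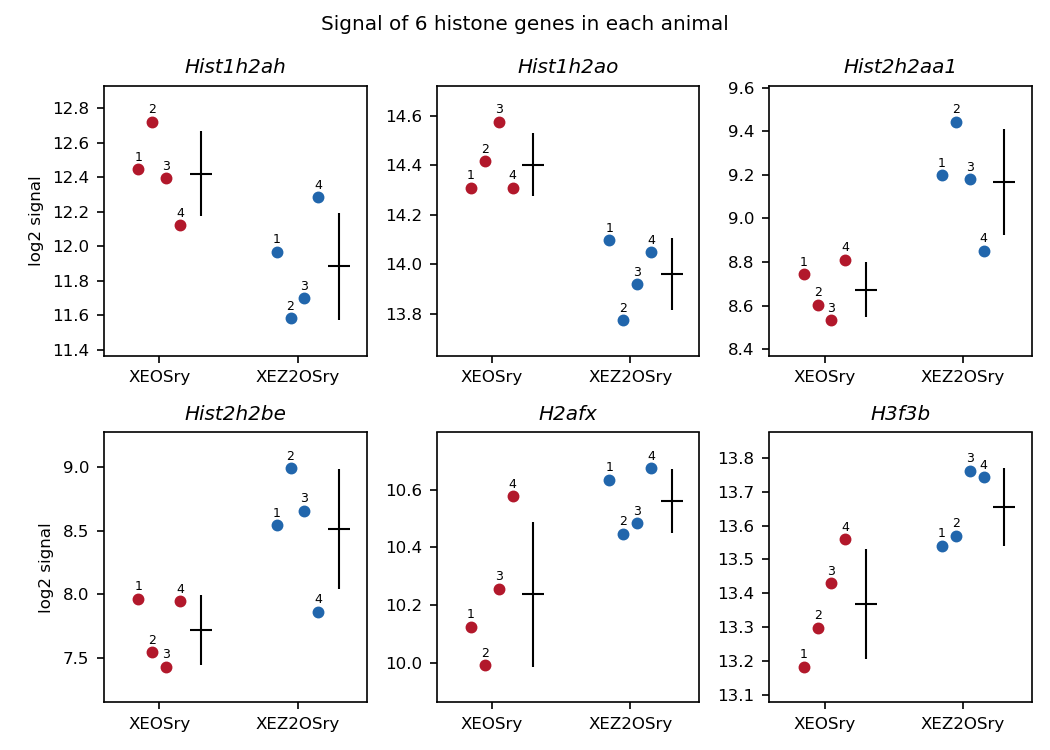
Log2 signal of 6 histone genes in each animal, XEOSry (red) left of XEZ2OSry (blue), with replicate numbers above the points and the mean and SD (n = 4) in black, each panel on a vertical scale of its own. The genotypes are apart in Hist1h2ao and Hist2h2aa1 and overlap in Hist1h2ah, Hist2h2be, H2afx and H3f3b.

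Testis histone variants gave signals at or near background on these arrays. Hist1h1t, the linker histone that replaces somatic H1 in spermatocytes, had log2 signals of 6.34, 6.33, 6.23 and 6.26 in XEOSry, against 6.32, 6.22, 6.12 and 6.32 in XEZ2OSry, and was not detected on any of the 8 arrays. The spermatid linker histones Hils1 and H1fnt were not detected on any array either. Hist1h2aa, a testis H2A, was detected on 2 arrays of each genotype, with 6.87, 6.64, 6.60 and 6.60 in XEOSry, against 6.91, 6.55, 6.64 and 6.76 in XEZ2OSry (difference -0.04, SE 0.11). Its head-to-head neighbour Hist1h2ba, the testis H2B, was detected on 2 XEOSry and 3 XEZ2OSry arrays, with 6.65, 6.91, 6.64 and 6.67 in XEOSry, against 7.05, 6.71, 6.75 and 6.90 in XEZ2OSry (difference -0.14, SE 0.11, 95% interval -0.38 to 0.11). These differences lay within the spread between animals. Detection calls were also missing throughout for 4 of the 17 prophase I markers found, namely Dmc1, Sycp3, Hormad1 and Tex12. Whether a missing call comes from the mRNA, the probe or the labelling was not tested.

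The genes of the later exchange to protamines were likewise low. Tnp1, a transition protein of spermatids, was detected on 2 arrays of each genotype, with 6.38, 6.68, 6.75 and 6.66 in XEOSry, against 6.68, 6.50, 6.76 and 6.95 in XEZ2OSry (difference -0.10, SE 0.12). Tnp2, Prm1 and Prm3 were not detected on any array, and neither were 12 of the 15 round spermatid markers found. Prm2 was not among the genes of the table used here. The oocyte linker histone H1foo was not detected on any array.

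Of the 72 members 26 were not detected on any array and 4 on 1 to 3 arrays, and these 30 were left out of the comparison. Detection did not follow signal in every gene, since Hist1h2bc had signals of 9.16, 8.99, 8.47 and 8.28 in XEOSry, against 8.41, 8.68, 8.58 and 8.78 in XEZ2OSry, with detection p-values of 0.0441 to 0.325. The label was made from RNA with a kit that primes on poly(A), and what this does to the signal of mRNAs that end in a stem-loop was not tested.

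Genes that act on histones were set beside the members, in lists by role. None of their genes passed the adjusted threshold. In histone mRNA processing the stem-loop end is cut and bound. Of 17 genes of this list found, 5 were not detected on any array (Slbp, Lsm11, Casp8ap2, Cpsf3 and Cstf2t). Among the 12 analysed, 5 lay above 0 and 7 below (median -0.10). Those with the highest mean signal were the core splicing proteins Snrpd3 at 0.19 (SE 0.12) and Snrpb at 0.00 (SE 0.19), of which the processing particle also holds copies. Among 18 histone chaperones, which carry histones to and from chromatin, 6 lay above 0 and 12 below (median -0.03), with Npm1 at -0.07 (SE 0.16) and Hat1, the acetyltransferase of new H4, at 0.19 (SE 0.15). Among 32 S phase genes 23 lay above 0 (median 0.12) and 9 below, among them those with the highest mean signal. Rpa1, the single-strand DNA binding protein, differed by -0.47 (SE 0.15) and Rfc2, a clamp loader subunit, by -0.39 (SE 0.12), with adjusted p-values of 0.126 and 0.129 from limma.

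Genes of the exchange of histones for protamines had the lowest median of these lists. Of 18 analysed, 12 lay below 0 and 6 above (median -0.31), and 6 of the 18 were lower at an unadjusted p under 0.05, where 12.0% of all genes kept were. Hspa2, a chaperone of meiotic cells, differed by -0.63 (SE 0.27) and Phf7, a histone H2A ubiquitin ligase of germ cells, by -0.80 (SE 0.44). This list holds Hspa2 and other genes that are pachytene markers as well. In the pathway that phosphorylates H2A.X on the sex chromosomes 9 of 15 analysed genes lay above 0 (median 0.04). The genes with the highest mean signal were H2afx and Rad9b, a subunit of the checkpoint clamp that differed by 0.18 (SE 0.09). At an unadjusted p under 0.05 from limma, 2 of the 15 were higher and 1 was lower, where 12.9% and 12.0% of all genes kept were. The X-linked gene Scml2 had the largest difference of this list (0.66, SE 0.17).

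The calls changed with the animals that entered. Without XEZ2OSry replicate 4, Hist1h2ah (0.67, adjusted p = 0.0477 from limma), Hist2h2aa1 (-0.60, adjusted p = 0.0393) and Hist2h2be (-1.01, adjusted p = 0.0385) passed. This was 1 of 42 members higher and 2 lower, where 519 of 8324 genes (6.23%) passed in all. Without XEOSry replicate 4 no member passed, where 396 genes (4.76%) did. The identifiers that the labels give to the XEOSry animals share their opening digits with no XEZ2OSry animal, so a cohort effect, should these digits stand for a cohort, cannot be told apart from genotype.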

How the data were processed

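Total RNA of the whole testis of 4 XEOSry and 4 XEZ2OSry males was hybridized by the authors to Illumina mouse whole-genome BeadChip arrays, version 2, 1 array per animal, after labelling with biotin. The authors deposited quantile normalized log2 values per gene (BeadStudio in the methods, GenomeStudio 2011.1 in the submitters' processing notes), linear signal intensities described as non-normalized, whose array medians are already alike (105.5 to 106.3), and detection p-values deposited with each value. Genotype and replicate follow the sample labels. The methods give fewer animals per genotype than the labels, and call the controls matched without saying how. The number of arrays limits the precision.

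The deposited log2 values were used without a floor or a further logarithm. Genes with a detection p-value under 0.01 on at least 4 of 8 arrays were kept. The genotypes were fitted by limma 3.58.1 under R 4.3.3 with no other factor (moderated two-sided test, Benjamini-Hochberg over 8324 genes, threshold 0.05). Single members were also tested by exact permutation over the 70 assignments, two-sided. Classes and lists are described by counts and medians without a test. The members, classes and lists were chosen with earlier results of these data known. Named genes are the 3 analysed members of each class with the largest absolute difference, the 2 with the highest mean signal, and the main testis and replacement variants. From the pachytene list and each list by role, the 2 genes with the highest mean signal are named. Other members and list genes named in the text were chosen after their values or detection calls were seen.

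All 72 members were matched to the RefSeq annotation of GRCm38.p6, 8 by current and 64 by older symbol. Promoter motifs were searched in the 250 bases before the start, in the promoter listed first for each member, with Python 3.11.15, pandas 2.3.3 and numpy 2.4.6, and plots were drawn with matplotlib 3.10.9. Alternatives were other filters, background correction with normexp (offset 50), median centring, the series table, no or intensity-dependent variance moderation, array weights, a replicate block and leaving out each animal.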

Additional observations from a re-analysis of the deposited data

Results flagged for a closer look

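Among the 84 combinations of an analysed member and a genotype, 4 had an animal far from the other 3, where chance alone gives about 1 in 20. H1f0, a linker histone of resting cells, had a log2 signal of 8.05 in XEZ2OSry replicate 4, and the nearest other animal of that genotype was at 7.50. H3f3a, which encodes H3.3, had 11.17 in XEOSry replicate 3, and the other 3 XEOSry animals lay between 11.46 and 11.47. The testis H2A gene Hist1h2aa had 6.87 in XEOSry replicate 1 with the nearest animal at 6.64, and the testis H2B gene Hist1h2ba had 6.91 in XEOSry replicate 2 with the nearest animal at 6.67. None of the 4 genes had passed the threshold in the comparison of the genotypes.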

How the results depend on the processing

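The 9 H2A genes, picked because they were higher in XEOSry, kept that direction under all 18 alternatives, with the H2A median between 0.35 and 0.54. The replicate block, the other filters, the series table and the variance models leave the difference of a gene as it was. The alternatives also use the same arrays, so the kept direction is no independent check. No member passed under the replicate block, other filters, other normalizations or other variance models. Between 1 and 6 genes passed in all under these settings, against 5 as reported. The count was 1 with the replicate block, with detection on all 8 arrays and without variance moderation. The other normalizations started from intensities with array medians already alike (105.5 to 106.3), so they cannot show how far the calls depend on normalization. The deviations of same-numbered animals from their genotype means correlated at 0.43, -0.23, 0.33 and -0.42 for replicates 1 to 4. Deviations from a mean of 4 animals depend on each other, so these values cannot show whether animals were matched. With array weights 2 of 42 members passed higher, Hist1h2ah (0.62) and Hist1h2ao (0.41), and 2 lower, Hist2h2aa1 (-0.51) and Hist2h2be (-0.82). In that setting 626 of 8324 genes (7.52%) passed in all. H2afz was then at 0.00075.

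Leaving out 1 animal gave 0 to 1 members higher, 0 to 2 lower and 3 to 519 genes in all. The count was 396 (4.76% of genes) without XEOSry replicate 4 and 519 (6.23%) without XEZ2OSry replicate 4. The median of the replacement variants ran from -0.24 (without XEOSry replicate 4) to -0.075, that of all replication-dependent members from 0.03 (without XEOSry replicate 2) to 0.23, that of H2A from 0.35 to 0.54, that of H2B from 0.01 to 0.18, that of H3 from -0.0083 to 0.11 and that of H4 from -0.02 to 0.23. Among the named genes, signs turned in 4 with small differences. Hist1h2bj ran from -0.062 (without XEOSry replicate 2) to 0.18, Hist1h4f from -0.016 (without XEOSry replicate 2) to 0.31, Hist1h2aa from -0.10 to 0.027 (without XEZ2OSry replicate 1) and H2afz from -0.088 to 0.062 (without XEOSry replicate 3). The causes were not tested.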
